A study of Mus musculus with 60 samples.

Results

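The step from the 8-cell embryo to the morula was examined in single mouse embryos of 3 types, as the change that the types had in common. Of the 60 libraries of the series, 54 are single embryos, and 18 of these were compared here, 9 at the 8-cell stage and 9 at the morula stage, with 3 libraries of each type at each stage. In vivo embryos came from C57BL/6 females mated with DBA/2 males. NTC embryos were made by transfer of a cumulus cell nucleus from a BDF1 female, and NTM embryos by transfer of the nucleus of a BDF1 mouse embryonic fibroblast (MEF), in each case into an enucleated MII oocyte. The genetic background of all 18 embryos was therefore BDF1. The nuclear transfer (NT) embryos had also been activated with SrCl2 in the presence of cytochalasin B, treated with the histone deacetylase inhibitor Scriptaid and cultured in vitro, so that culture and nuclear transfer cannot be told apart in them. Per the study's methods the 3 libraries of a group are 3 separate embryos.

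During this step the blastomeres flatten against each other in compaction, acquire an apical and a basal side, and begin to divide into outer and inner cells. Outer cells take the path to trophectoderm, in which Yap and Tead4, released from Hippo signalling, act upstream of Cdx2 and Gata3. Inner cells keep the pluripotency factors and later give rise to the epiblast and the primitive endoderm. RNA of a whole embryo was measured, so that a change in the number of cells of a kind and a change in RNA per cell cannot be told apart.

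The authors deposited RPKM, reads scaled to the length of the exons and to the reads of the library. The 8-cell libraries held 5758139 to 25632960 reads on genes and the morula libraries 12705792 to 26281514. In vivo 8-cell replicate 3 and NTM 8-cell replicate 3 were the shallowest, and a value of 0 on a transcript of 2000 nt leaves up to 0.258 and 0.261 RPKM open in them, by counting error alone. Genes of the mitochondrial genome took 38.7 ± 4.96% of the reads at the 8-cell stage and 42.8 ± 12.9% in morulas (SD, n = 9 each, exact permutation test within types, two-sided p = 0.393, adjusted p = 0.589), with in vivo morula replicate 1 at 64.2%. Libraries correlated across genes with their own group at a median r of 0.862, with the other stage of their type at 0.823 and with their own stage in other types at 0.814. The lowest mean correlation with the other 17 libraries was 0.721, for NTC 8-cell replicate 3, without which 33 genes were higher and 84 lower in the fit described next. Genes are not independent replicates, and the correlations are descriptions.

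Of 9597 genes whose RPKM averaged 0.5 or more over the 18 libraries, 31 rose and 70 fell from the 8-cell embryo to the morula in the fit with embryo type as a block (limma, Benjamini-Hochberg adjusted p under 0.05 and a change of at least 1 on the log2(RPKM + 1) scale). These are 0.323% and 0.729% of the genes tested, and 1.05% in both directions together. The genes that rose were led by the zinc finger gene Zfp990 and by Gata3 and Cdx2, and those that fell by Hand1, Tbc1d12 and Gata4. The median change was 1.83 among the genes that rose and -1.58 among those that fell, and -0.04 over all genes tested. At an unadjusted p under 0.05, 642 genes were higher (6.69%) and 840 lower (8.75%), together 15.4% of the genes tested. Scaling by median ratios gave 79 higher and 78 lower genes and leaving the mitochondrial genome out of the total gave 93 and 71, so that the share of higher calls was 50.3% and 56.7% under these scalings and 30.7% in the deposited RPKM. Without NTC morula replicate 3 the counts were 13 and 36, without NTC morula replicate 1 they were 14 and 36, and without in vivo 8-cell replicate 1 they were 19 and 36. Without NTC morula replicate 2 or NTM 8-cell replicate 1 the number of higher genes was 57 or 51, and without NTM 8-cell replicate 2 or NTM morula replicate 3 the number of lower genes was 37 or 46. All 18 fits that each left out 1 library called 13 of the 31 higher and 30 of the 70 lower genes.

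**Figure D1:**
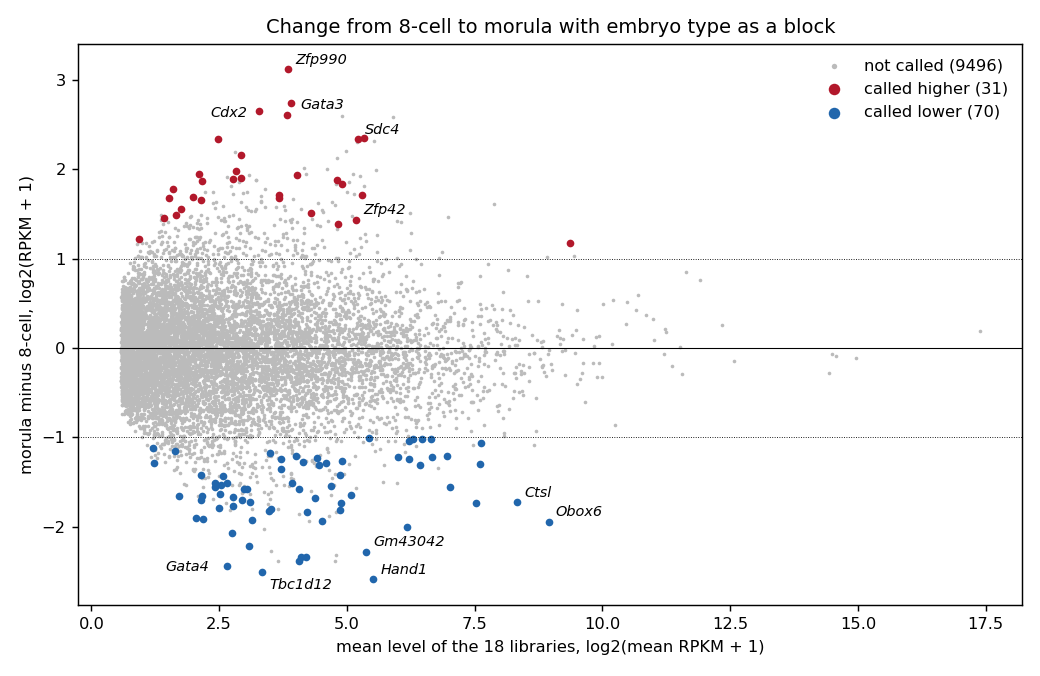
Change from 8-cell to morula in the blocked fit (vertical axis, log2(RPKM + 1)) against the mean level of the 18 libraries (horizontal axis, log2(mean RPKM + 1)), 1 point for each of the 9597 genes tested. The 31 red points are the genes called higher and the 70 blue points those called lower, and dotted lines mark changes of 1 and -1.

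The largest rises among genes with an established symbol included 2 transcription factors of the trophectoderm. Gata3, a zinc finger factor of trophoblast, was at 0.0176, 2.17 and 0.26 RPKM in the in vivo 8-cell embryos, 6.58, 0.045 and 0.0705 in NTC and 14.3, 5.11 and 7.38 in NTM. In morulas the values were 9.58, 18.8 and 38.9 RPKM in vivo, 48.03, 4.17 and 28.2 in NTC and 22.1, 13.1 and 33.8 in NTM. The ranges overlapped, with 6 of 9 morulas above the highest 8-cell embryo, which was an NTM embryo. The change of Gata3 was +2.74 ± 0.51 (log2, SE, adjusted p = 0.00919), made up of +3.67 for in vivo, +3.26 for NTC and +1.28 for NTM embryos.

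Cdx2, the caudal-type homeobox factor that marks the trophectoderm, was listed at 0 in all 3 NTC 8-cell embryos, at 0, 0.384 and 0.229 RPKM in vivo and at 8.44, 2.75 and 5.53 in NTM. Morulas had 22.1, 7.51 and 19.4 RPKM in vivo, 21.7, 0 and 14.5 in NTC and 9.75, 9.51 and 35.9 in NTM. Among the morulas NTC morula replicate 2 alone was listed at 0, and 7 of 9 morulas exceeded every 8-cell embryo. The change was +2.65 ± 0.51 (log2, SE, adjusted p = 0.013). NTM 8-cell embryos already held more Gata3 and Cdx2 RNA than the median 8-cell embryo, and the NTM changes of both genes were the smallest of the 3 types. A test for a difference of the step between types gave a p of 0.12 for Gata3 and 0.165 for Cdx2 (adjusted p = 0.571 and 0.614, F test of limma). That does not show that the types rose alike.

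Over the list of 22 trophectoderm genes, 16 were tested, 2 rose (Gata3 and Cdx2) and 1 fell (Hand1), with a median change of 0.64. Of all genes tested 0.323% rose and 0.729% fell. A further 5 genes of the list were higher at an unadjusted p under 0.05 (6.69% of all genes tested) and did not pass the adjustment. Krt8, a keratin of simple epithelia, was at 0.267 to 40.4 RPKM with a median of 2.68 at the 8-cell stage and at 0.378 to 11.9 RPKM with a median of 7.78 in morulas. Its change of +0.21 ± 0.57 (log2, SE, adjusted p = 0.9) did not pass, and the values of the 2 stages overlapped fully. The median of Krt8 over 9 libraries was 7.78 RPKM in morulas and 185 in blastulas.

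**Figure D2:**
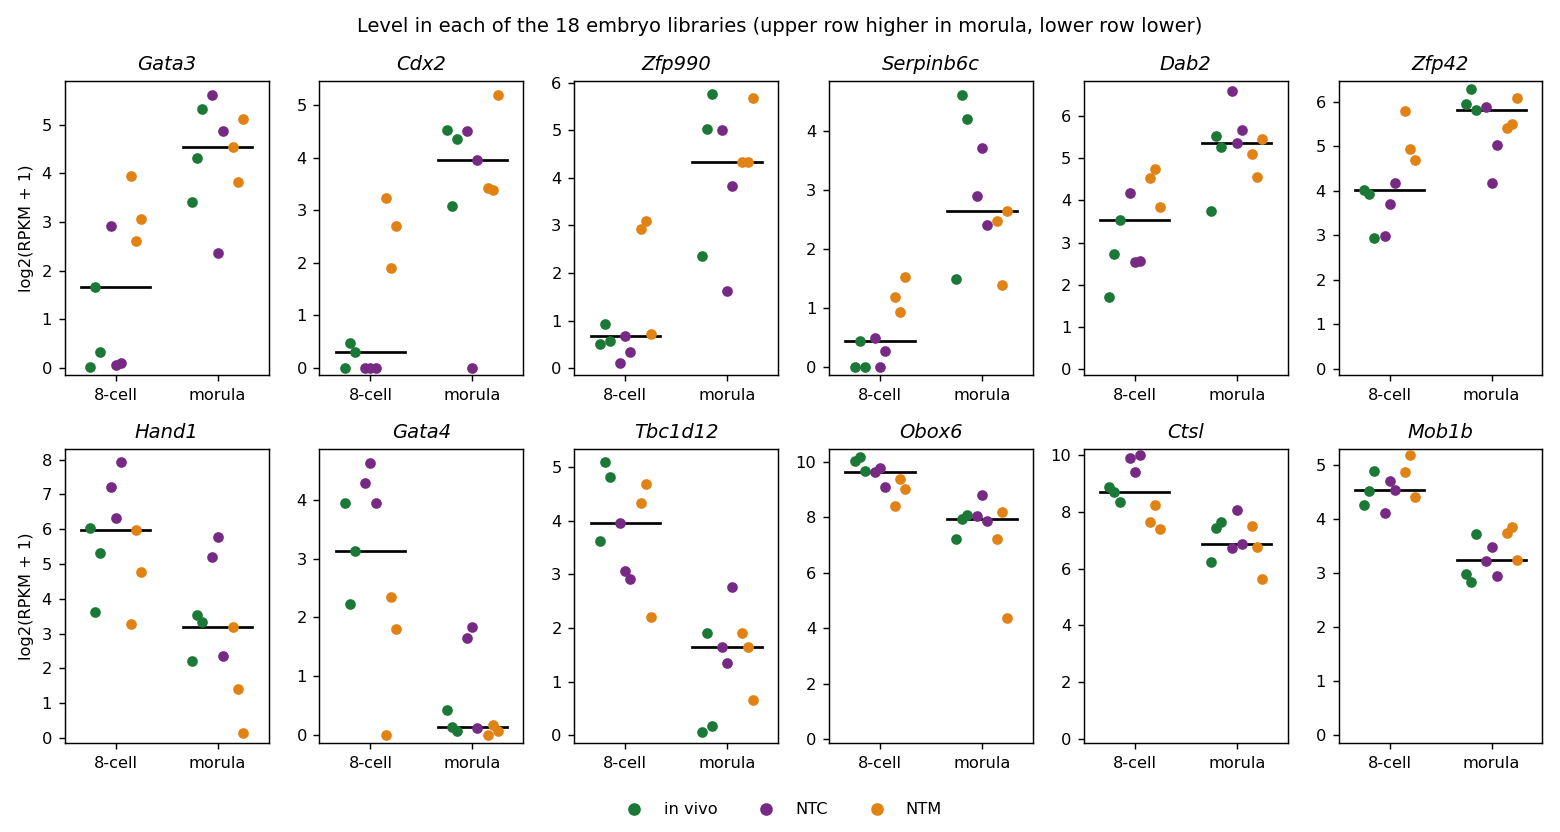
Level of 12 genes in each of the 18 libraries (vertical axis, log2(RPKM + 1)) by stage, coloured by embryo type, with a black bar at the median of 9. The upper row shows genes called higher and the lower row genes called lower, and the values of Mob1b do not overlap between the stages.

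Promoter sequence was taken from RefSeq (GRCm38.p6), 250 bases before to 50 after the annotated start, for the 3 highest and 3 lowest named genes. A like sign in the 3 types was a condition of their naming. The table had Gata3, Cdx2 and Tbc1d12. Zfp990 (chr4:145510759-145539188, plus strand in GENCODE M21), Hand1 (chr11:57828705-57832818, minus strand) and Gata4 (chr14:63198922-63271692, minus strand) have no entry. The window of Gata3 is on the minus strand at chr2:9878551-9878850, inside the longer gene that GENCODE gives (chr2:9857078-9890034), that of Cdx2 on the minus strand at chr5:147307200-147307499 and that of Tbc1d12 on the plus strand at chr19:38836329-38836628. Capitals mark, on either strand, the motifs searched, which were the TATA box with the letters TATAAA, the CCAAT box, the GC box with the letters GGGCGG, the core of the TEAD site with the letters GGAATG, and the core of the AP-2 site with the letters GCCNNNGGC.
Gata3: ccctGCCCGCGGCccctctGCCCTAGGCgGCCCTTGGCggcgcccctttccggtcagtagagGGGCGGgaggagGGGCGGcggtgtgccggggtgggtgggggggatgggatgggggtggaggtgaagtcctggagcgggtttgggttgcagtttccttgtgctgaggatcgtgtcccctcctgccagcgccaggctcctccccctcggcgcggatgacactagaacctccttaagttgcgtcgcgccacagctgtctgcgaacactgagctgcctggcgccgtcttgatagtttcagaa
Cdx2: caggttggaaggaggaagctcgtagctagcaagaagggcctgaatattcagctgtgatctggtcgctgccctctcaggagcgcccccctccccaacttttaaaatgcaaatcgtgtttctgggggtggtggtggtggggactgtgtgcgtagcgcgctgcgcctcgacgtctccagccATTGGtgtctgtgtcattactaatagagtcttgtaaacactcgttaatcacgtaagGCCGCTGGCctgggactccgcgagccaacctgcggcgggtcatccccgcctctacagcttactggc
Tbc1d12: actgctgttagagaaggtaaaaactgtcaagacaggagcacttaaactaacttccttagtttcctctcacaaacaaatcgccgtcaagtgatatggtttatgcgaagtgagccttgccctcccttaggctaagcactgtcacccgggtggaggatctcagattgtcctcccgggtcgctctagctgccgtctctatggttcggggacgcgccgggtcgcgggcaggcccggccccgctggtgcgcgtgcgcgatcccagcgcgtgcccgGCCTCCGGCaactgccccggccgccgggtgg
The window of Gata3 held 3 matches to the AP-2 core and 2 to the GC box. That of Cdx2 held 1 match to the CCAAT box on the opposite strand and 1 to the AP-2 core, and that of Tbc1d12 held 1 to the AP-2 core. No 2 matches overlapped. The TEAD core was in none of the 3 windows. Of 27025 promoters of the same length, 16.5% held the AP-2 core, 35.9% the GC box, 37.9% the CCAAT box, 14.6% the TEAD core and 14.2% the TATA box. Among genes tested with an entry (7043), the shares were 24.5% for the AP-2 core, 65.1% for the GC box, 39.7% for the CCAAT box and 11.6% for the TEAD core. Among genes that rose, 7 of 20 promoters held the AP-2 core and 3 the TEAD core, and among genes that fell 13 of 46 and 2 did. The GC box was in 14 of the 20 and in 34 of the 46. These are matches of letters and no test was made of them.

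Zfp990 had the largest change of the genes that rose. It encodes a zinc finger protein and lies on chromosome 4, as does Zfp988, and both have close relatives in clusters there, so that reads may be shared between copies and their values are uncertain. Zfp990 was at 0.0782 to 7.53 RPKM with a median of 0.597 in 8-cell embryos and at 2.08 to 52.8 RPKM with a median of 19.1 in morulas. The highest 8-cell values, 6.62 and 7.53 RPKM, were NTM embryos, and within each type the 3 morulas lay above the 3 8-cell embryos. The change was +3.12 ± 0.48 (log2, SE, adjusted p = 0.00488), and that of the types +3.70 (in vivo), +3.11 (NTC) and +2.53 (NTM). Zfp988 changed by +1.83 ± 0.40 (log2, SE, adjusted p = 0.0268) and was called in 14 of the 18 fits that left out 1 library.

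Sdc4 encodes syndecan-4, a heparan sulphate proteoglycan of the membrane. Its level was between 0 and 48.2 RPKM (median 14.5) at the 8-cell stage and between 23.2 and 113 RPKM (median 51.8) in morulas, with 5 of 9 morulas above all 8-cell embryos. The change of Sdc4 was +2.34 ± 0.56 (log2, SE, adjusted p = 0.0395), falling from +4.39 in vivo over +2.23 for NTC to +0.40 for NTM. It was called in 7 of 18 fits that left out 1 library. Ptges, the enzyme that makes prostaglandin E2, was between 0 and 22.8 RPKM (median 5.69) before the step and between 14.1 and 47.4 RPKM (median 18.97) after it. Its change was +1.93 ± 0.44 (log2, SE, adjusted p = 0.0342), with the largest part in vivo (+3.34) and the smallest in NTM (+0.76), and it was called in 8 of the 18 fits. Every morula had more than 14 RPKM of Ptges.

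Dab2, an endocytic adaptor used by the extraembryonic endoderm, was between 2.27 and 25.9 RPKM (median 10.6) in 8-cell embryos and between 12.4 and 95.2 RPKM (median 40.1) in morulas. In NTM the 8-cell values of 22.1, 25.9 and 13.4 RPKM overlapped the morula values of 33.6, 22.7 and 42.7, whereas in NTC and in vivo the stages were separate. The change was +1.88 ± 0.38 (log2, SE, adjusted p = 0.0167). The list of primitive endoderm genes had 11 tested members, of which Dab2 rose and Gata4 fell, with a median change of 0.19. Over all genes tested 0.323% rose and 0.729% fell.

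Trp53bp2, a p53-binding protein also known as ASPP2, had values between 0 and 7.52 RPKM (median 0.254) at the 8-cell stage and between 0.451 and 23.97 RPKM (median 12.5) in morulas. Its change was +2.16 ± 0.45 (log2, SE, adjusted p = 0.0181), and the stages were separate within each of the 3 types. Serpinb6c, a member of the serine protease inhibitor family with many near relatives, whose reads may be shared, was between 0 and 1.87 RPKM (median 0.347) and then between 1.61 and 23.5 RPKM (median 5.23). The change of Serpinb6c was +2.33 ± 0.42 (log2, SE, adjusted p = 0.00821), with 7 of 9 morulas above every 8-cell embryo. Cep290, a protein of the centrosome and the base of the cilium, was listed at or near 0 in most 8-cell embryos (0 to 6.996 RPKM with a median of 0.0263) and at 2.74 to 8.76 RPKM with a median of 4.91 in morulas. Its changes in the 3 types were close to each other (+1.90, +2.15 and +1.79 for in vivo, NTC and NTM, blocked fit +1.95 ± 0.38 (log2, SE, adjusted p = 0.0154)). The exons of Cep290 share bases with a gene on the opposite strand, those of Gata3, Dab2 and Ctsl with noncoding genes, and counting by strand is not stated in the sources used here.

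Of the remaining named genes that rose, Platr27, a long noncoding RNA, changed by +1.90 ± 0.37 (log2, SE, adjusted p = 0.013) and Phf11d, a PHD finger protein with near copies, by +1.98 ± 0.45 (log2, SE, adjusted p = 0.0355). Phf11d was called in 9 of the 18 fits and its change in NTM was +0.07. The predicted gene models Gm17067 and Gm11688 changed by +1.90 ± 0.42 (log2, SE, adjusted p = 0.0268) and +1.87 ± 0.42 (log2, SE, adjusted p = 0.0296), called in 15 and 12 of the 18 fits.

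**Figure D3:**
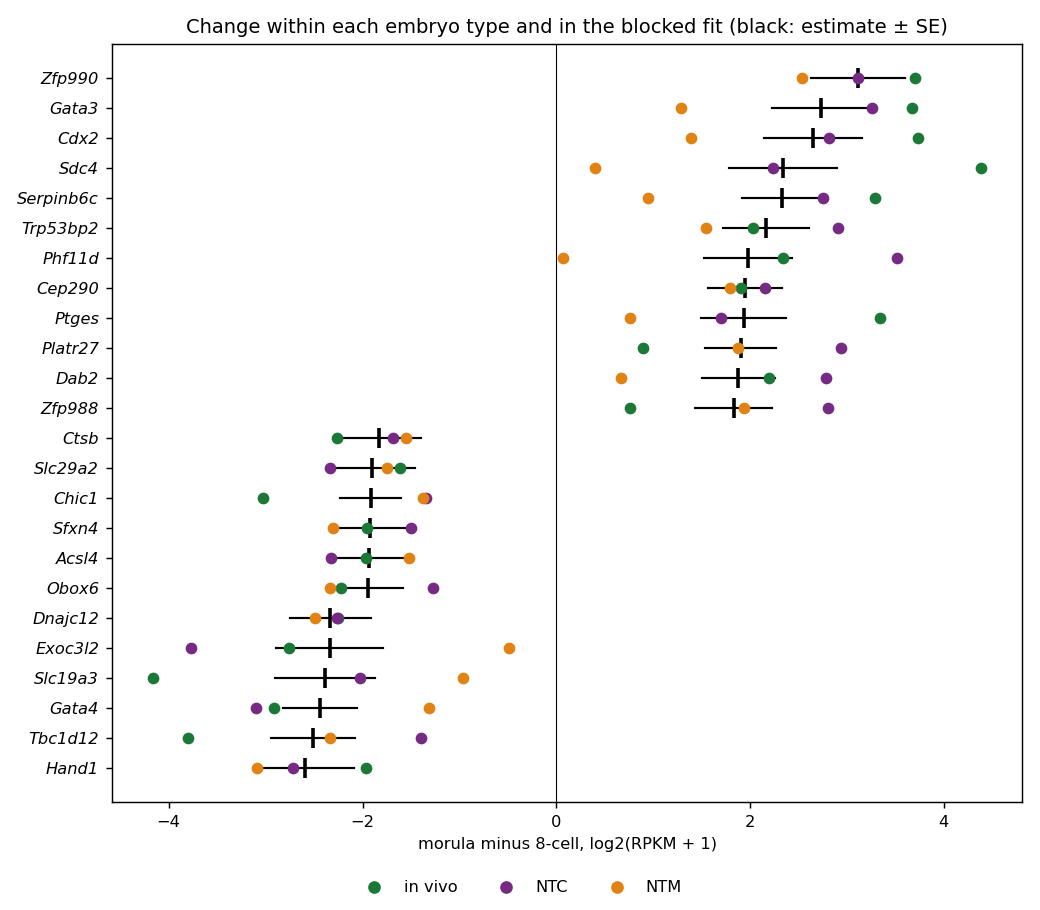
Change from 8-cell to morula of the 12 highest and 12 lowest named genes (horizontal axis, log2(RPKM + 1)), with coloured points for the change within each type and black bars for the blocked estimate ± SE. All 24 genes have the same sign in the 3 types, and the NTM point is the one nearest to 0 for 10 of the 12 genes that rose.

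Pluripotency genes gave 1 call in 24, beside 1.05% of all genes tested. Zfp42, also called Rex1, a zinc finger marker of naive pluripotent cells, was at 6.61 to 54.03 RPKM with a median of 15.1 in 8-cell embryos and at 17.03 to 77.4 RPKM with a median of 55.1 in morulas. Its change was +1.44 ± 0.31 (log2, SE, adjusted p = 0.0268), larger in vivo (+2.39) and in NTC (+1.39) than in NTM (+0.53), where the 8-cell embryos were at 54.03, 29.5 and 24.6 RPKM. Zfp42 was called in 13 of 18 fits that left out 1 library. The list had 24 tested members with a median change of 0.31, and 7 of them were higher and 2 lower at an unadjusted p under 0.05. Of all genes tested 6.69% were higher and 8.75% lower at that threshold.

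Nanog, the homeobox factor of the epiblast, had values between 1.38 and 22.2 RPKM (median 7.29) at the 8-cell stage and between 10.4 and 142 RPKM (median 50.8) in morulas. Its change of +1.86 ± 0.57 (log2, SE, adjusted p = 0.107) did not pass, although its size exceeded that of Zfp42. In one fit over all 54 embryo libraries, which share an estimate of the spread, Nanog and Tfcp2l1, another pluripotency factor, were called higher together with Zfp42. The spread was large, and the NTC morulas alone were at 89.1, 12.2 and 142 RPKM. Pou5f1, which encodes Oct4, was at a median of 3.84 RPKM and then 9.27, a change of +0.82 ± 0.37 (log2, SE, adjusted p = 0.28). Sox2 was below the filter, with at most 1.19 RPKM in 8-cell embryos and 1.43 in morulas.

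Among the 3 largest falls were Hand1 and Gata4, transcription factors of later lineages, and Tbc1d12. Hand1, a basic helix-loop-helix factor of trophoblast giant cells, was at 64.97, 11.3 and 38.9 RPKM in vivo, 149, 78.7 and 241 in NTC and 8.69, 61.7 and 26.3 in NTM at the 8-cell stage. In morulas it was at 3.68, 10.6 and 9.12 RPKM in vivo, 35.6, 53.8 and 4.12 in NTC and 8.08, 1.67 and 0.107 in NTM. Hand1 fell within each type without overlap of the 3 against 3 libraries, while NTC morulas reached levels of in vivo 8-cell embryos. The change was -2.59 ± 0.50 (log2, SE, adjusted p = 0.0137), opposite in sign to those of Gata3 and Cdx2 on the same list.

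Gata4, a zinc finger factor of the primitive endoderm and heart, was at 0 to 23.96 RPKM with a median of 7.81 at the 8-cell stage and at 0 to 2.56 RPKM with a median of 0.0874 in morulas. In NTC it was highest before the step (18.6, 23.96 and 14.6 RPKM) and in morulas at 2.13, 2.56 and 0.078. One NTM 8-cell embryo was listed at 0, so that the stages overlapped. The change was -2.44 ± 0.38 (log2, SE, adjusted p = 0.00488).

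Obox6, an oocyte-specific homeobox family gene, was the most abundant of the 12 lowest named genes. Its level was between 339 and 1163 RPKM (median 791) in 8-cell embryos and between 19.9 and 447 RPKM (median 243) in morulas, and 8 of 9 morulas lay below every 8-cell embryo. The change was -1.94 ± 0.36 (log2, SE, adjusted p = 0.00888). Obox genes are near copies of each other and their reads may be shared. Tbc1d12, which has the domain of Rab GTPase activators, was at 3.59 to 32.98 RPKM with a median of 14.5 and then at 0.0374 to 5.8 RPKM with a median of 2.12. It changed by -2.51 ± 0.43 (log2, SE, adjusted p = 0.00646), with 8 of 9 morulas below all 8-cell embryos.

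Slc19a3, a thiamine transporter, was between 6.3 and 94.2 RPKM (median 10.7) at the 8-cell stage and between 0.0445 and 16.8 RPKM (median 5.05) in morulas, a change of -2.39 ± 0.52 (log2, SE, adjusted p = 0.0268), called in 13 of 18 fits without 1 library. Slc29a2, an equilibrative nucleoside transporter, was between 0.126 and 13.7 RPKM (median 5.85) before the step and between 0 and 1.32 RPKM (median 0.185) after it. Its change was -1.90 ± 0.44 (log2, SE, adjusted p = 0.0376), called in 6 of the 18 fits. Acsl4, a long-chain acyl-CoA synthetase, fell in all 3 types without overlap of the libraries (in vivo -1.96, NTC -2.32, NTM -1.52).

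Dnajc12, a J-domain co-chaperone, was at 7.92 to 74.9 RPKM with a median of 23.1 and then at 0 to 11.4 RPKM with a median of 4.7, and its changes in the 3 types lay between -2.49 and -2.25. The blocked change was -2.33 ± 0.42 (log2, SE, adjusted p = 0.00821). Exoc3l2, related to an exocyst subunit, changed by -2.34 ± 0.55 (log2, SE, adjusted p = 0.0393) with -0.49 in NTM, and was called in 6 of 18 fits. Sfxn4, a mitochondrial sideroflexin, changed by -1.92 ± 0.42 (log2, SE, adjusted p = 0.0268) and was called in 13 of 18 fits. Of 2 noncoding predicted models, Gm43042 was at a median of 29815 RPKM in 2-cell embryos, 54.2 at the 8-cell stage and 8.8 in morulas, a change of -2.28 ± 0.40 (log2, SE, adjusted p = 0.00795) over the last step. Gm37724 had 2698 RPKM at the 2-cell stage and changed by -2.22 ± 0.38 (log2, SE, adjusted p = 0.00646) from the 8-cell embryo to the morula.

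Of 26 lysosomal genes tested, 3 fell and none rose, with a list median of 0.04, beside 0.729% lower and 0.323% higher calls over all genes. Ctsl, the protease cathepsin L, was between 165 and 1015 RPKM (median 416) at the 8-cell stage and between 48.9 and 267 RPKM (median 117) in morulas. NTC embryos had the highest values before the step, 958, 676 and 1015 RPKM, and 105, 267 and 117 after it. The change of Ctsl was -1.73 ± 0.29 (log2, SE, adjusted p = 0.00574). Ctsb, cathepsin B, changed by -1.83 ± 0.43 (log2, SE, adjusted p = 0.0395) and was called in 8 of 18 fits, and its exons share bases with those of Fdft1 on the opposite strand, which changed by -0.48 ± 0.28 (log2, SE, adjusted p = 0.427) and did not pass. Lamp2, a protein of the lysosomal membrane, was between 15.2 and 105 RPKM (median 31.4) in 8-cell embryos and between 3.73 and 50.9 RPKM (median 7.06) in morulas, a change of -1.42 ± 0.26 (log2, SE, adjusted p = 0.0085). The other 23 lysosomal genes did not pass. At an unadjusted p under 0.05, 5 genes of the list were higher and 6 lower (6.69% and 8.75% of all genes tested).

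Hippo pathway genes had 1 call in 18, beside 1.05% of all genes tested. Mob1b, a cofactor of the Lats kinases, was between 16.3 and 35.4 RPKM (median 22.3) in 8-cell embryos and between 6.13 and 13.6 RPKM (median 8.53) in morulas. Each of the 9 morulas lay below each of the 9 8-cell embryos. The change was -1.27 ± 0.23 (log2, SE, adjusted p = 0.00821), close to its values within the types (in vivo -1.38, NTC -1.23, NTM -1.20). Yap1, the coactivator that this pathway restrains, was at 7.15 to 32.5 RPKM with a median of 17.7 and then at 3.28 to 13.98 RPKM with a median of 6.52, and its change of -0.96 ± 0.31 (log2, SE, adjusted p = 0.129) did not pass. Tead4, the DNA-binding partner of Yap1, changed by -0.34 ± 0.31 (log2, SE, adjusted p = 0.64) and did not pass.

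The machinery of compaction showed no call at the level of RNA. None of 25 compaction and adhesion genes passed (limma), with 3 higher and 0 lower at an unadjusted p under 0.05 and a median change of 0.04. Over all genes tested 1.05% were called, and 6.69% were higher and 8.75% lower at the unadjusted threshold. At such a share of calls, a list of this size can hold none without differing from all genes. Cdh1, which encodes E-cadherin, the adhesion protein of compaction, was at 2.99 to 13.7 RPKM with a median of 12.3 in 8-cell embryos and at 2.01 to 22.1 RPKM with a median of 9.5 in morulas, a change of -0.22 ± 0.40 (log2, SE, adjusted p = 0.838). Actg1, a cytoplasmic actin, was between 173 and 864 RPKM (median 536) and then between 190.2 and 1327 RPKM (median 909.5). Its change of +1.03 ± 0.30 (log2, SE, adjusted p = 0.0891) did not pass, but did under median-ratio scaling, with the mitochondrial genome left out, where Actb passed too, and in one fit over 54 libraries. Cfl1, an actin-severing cofilin, changed by -0.03 ± 0.25 (log2, SE, adjusted p = 0.97) and took the other sign under both scalings. None of 15 polarity genes passed (1 higher and 2 lower at an unadjusted p under 0.05), with Crb3 at -0.46 ± 0.28 (log2, SE, adjusted p = 0.442) and Mark3 at -0.21 ± 0.32 (log2, SE, adjusted p = 0.812). None of 11 tight junction genes passed (0 higher and 2 lower unadjusted), with the claudin Cldn4 at +0.32 ± 0.37 (log2, SE, adjusted p = 0.72) and Cxadr at -1.27 ± 0.33 (log2, SE, adjusted p = 0.0622), which passed in one fit over 54 libraries.

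Of 11 genes for cavitation, the pumping of fluid into the later blastocoel, 1 fell, and 8 had a negative change with a list median of -0.58. Over all 9597 genes tested, 0.729% fell and 5095 genes had a negative change. Without adjustment, 6 genes of the list were lower and 1 higher at p under 0.05 (limma, 8.75% and 6.69% of all genes tested). Slc12a2, a cotransporter of sodium, potassium and chloride, was between 36.7 and 246 RPKM (median 121) at the 8-cell stage and between 20.7 and 127 RPKM (median 41.3) in morulas. The change was -1.31 ± 0.31 (log2, SE, adjusted p = 0.0387), called in 5 of 18 fits that left out 1 library. In one fit over 54 libraries Slc12a2 did not pass, while Aqp3 was called higher and Aqp9 and Atp1b2 lower.

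**Figure D4:**
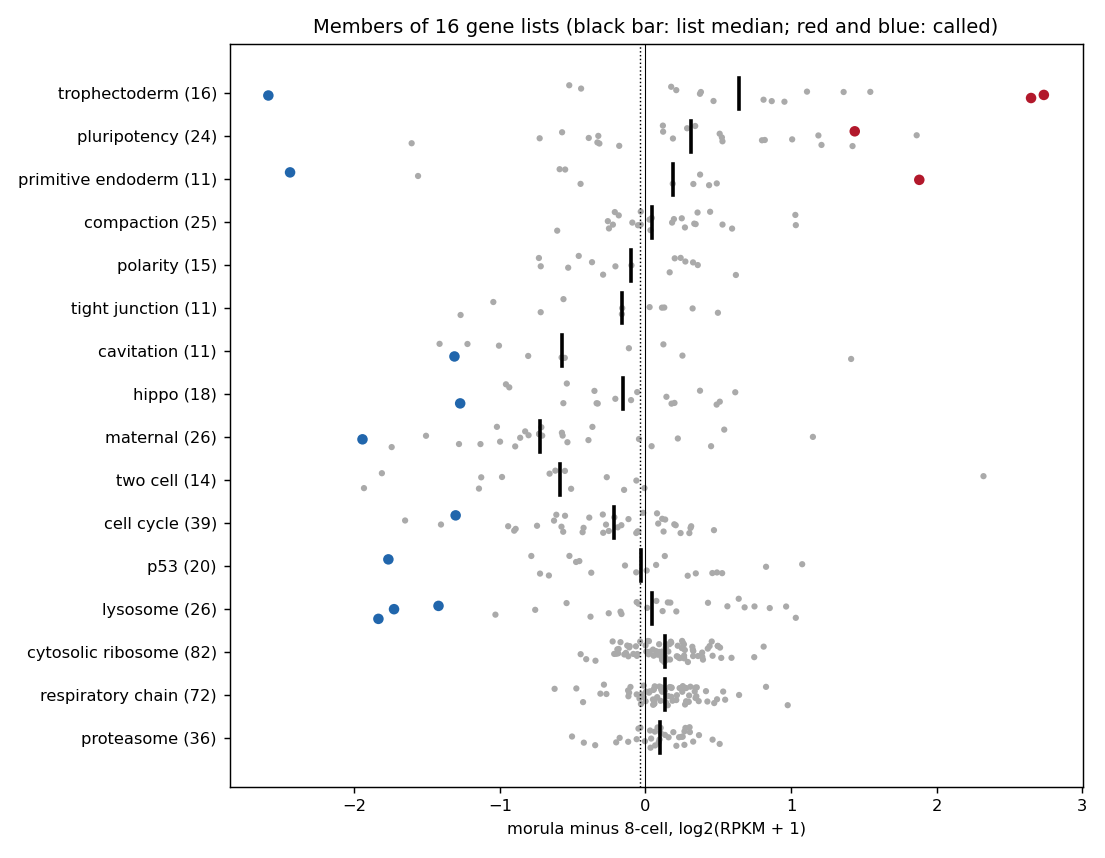
Change from 8-cell to morula (horizontal axis, log2(RPKM + 1)) of the tested members of 16 gene lists, with the number tested in brackets, a black bar at the list median and a dotted line at the median of all genes. Red and blue points are called higher and lower, and the lists of maternal and 2-cell genes have the lowest medians, -0.72 and -0.59.

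The lists of maternal genes and of 2-cell genes gave 1 call together. Of 26 maternal genes tested, 21 had a negative change, beside 5095 of all 9597 genes tested. The list median was -0.72 beside -0.04 for all genes. At an unadjusted p under 0.05, 8 of the 26 were lower and 2 higher (limma, 8.75% and 6.69% of all genes tested). Obox6 alone passed, and in one fit over all 54 embryo libraries Oog1 passed in its place. The RNA of Obox6 was at a median of 0 RPKM in 1-cell and 789 in 4-cell embryos. The summed level of the list was 439.6 to 1349.8 RPKM at the 8-cell stage (median 937) and 104 to 537 in morulas (median 340.4), where the median of Obox6 itself was 791 and 243. Of 14 genes of the 2-cell programme, 13 had a negative change (median -0.59) and none passed (limma). At an unadjusted p under 0.05, 1 was higher and 5 lower, beside 6.69% and 8.75% of all genes tested. Sp110, of this list, was called lower under median-ratio scaling, with the mitochondrial genome left out, with array weights and in one fit over 54 libraries. Gm5662, the gene of the 2-cell list with a positive change, was at 0.152 to 57.3 RPKM with a median of 2.16 at the 8-cell stage. In morulas it was at 0.0795 to 292 RPKM with a median of 23.3, a change of +2.32 ± 0.79 (log2, SE, adjusted p = 0.148). Gm8300 changed by -0.55 ± 0.66 (log2, SE, adjusted p = 0.737), and both genes have near copies, so that their values are uncertain.

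Cell cycle genes gave 1 call in 39, beside 1.05% of all genes tested. Ccnb1, cyclin B1, the partner of Cdk1 at mitosis, was between 101 and 603 RPKM (median 242) at the 8-cell stage and between 36.1 and 296 RPKM (median 100.1) in morulas. The change was -1.30 ± 0.31 (log2, SE, adjusted p = 0.043), largest in vivo (-2.40, beside -0.58 for NTC and -0.93 for NTM), and it was called in 4 of the 18 fits. The list median was -0.21, and 7 members were lower and 0 higher at an unadjusted p under 0.05 (8.75% and 6.69% of all genes tested).

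Large housekeeping sets gave no call in the deposited RPKM. None of 82 cytosolic ribosomal protein genes, 72 nuclear respiratory chain genes, 36 proteasome genes or 12 genes of the mitochondrial genome passed (limma), and at an unadjusted p under 0.05 there were 7, 4, 0 and 0 higher genes and no lower ones. Over all genes tested 1.05% were called, and 6.69% were higher and 8.75% lower at the unadjusted threshold. The medians of these lists, in the same order, were 0.13, 0.13, 0.10 and -0.08. Median-ratio scaling gave medians of 0.20, 0.17 and 0.16 for the first 3 lists, and leaving out the mitochondrial genome 0.26, 0.23 and 0.22. Under both, and without in vivo morula replicate 1, the respiratory chain gene Ndufa6 was called higher. Rpl4 changed by +0.09 ± 0.20 (log2, SE, adjusted p = 0.871), Atp5b by -0.28 ± 0.29 (log2, SE, adjusted p = 0.678), Psmd8 by +0.13 ± 0.23 (log2, SE, adjusted p = 0.829) and mt-Co1 by -0.09 ± 0.22 (log2, SE, adjusted p = 0.888). None of 16 glycolysis, 19 cholesterol or 9 DNA methylation genes passed (0, 0 and 1 higher and 2, 1 and 0 lower at an unadjusted p under 0.05), with Pgam1 at -0.29 ± 0.34 (log2, SE, adjusted p = 0.724), Pmvk at +1.21 ± 0.60 (log2, SE, adjusted p = 0.339) and Dnmt3b at -0.19 ± 0.30 (log2, SE, adjusted p = 0.82). Tet2, of the DNA methylation list, was called higher under both scalings and in one fit over 54 libraries.

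Few markers of the donor cells passed the filter. Of 17 cumulus cell markers, 8 were at 0 in all 18 libraries, among them Cyp19a1, Fshr and Lhcgr, and 2 passed the filter. Of these Amhr2, the receptor of anti-Mullerian hormone, fell by -1.52 ± 0.33 (log2, SE, adjusted p = 0.0265) and was called in 13 of 18 fits. It was at 13.3, 18.5 and 13.9 RPKM in NTC 8-cell embryos, 5.51, 5.79 and 2.08 in NTM and 4.01, 0.265 and 1.12 in vivo, and in morulas at 3.67, 5.54 and 1.54 in NTC, 0.432, 2.73 and 0.285 in NTM and 0, 0 and 0.11 in vivo. The in vivo embryos, which received no donor nucleus, thus also had Amhr2 reads at the 8-cell stage. The summed cumulus list was 0.265 to 22.5 RPKM at the 8-cell stage and 0 to 5.54 in morulas. Of 18 MEF markers, 6 were at 0 throughout, among them Col3a1, Thy1 and Lum, and the 2 tested, Twist2 and Dcn, were each above 2 RPKM in a single library (21.2 RPKM in NTC 8-cell replicate 3 and 14.3 RPKM in NTM 8-cell replicate 3). Among the embryo genes set as markers, Pou5f1, Nanog, Tead4 and Cdh1 had reads in all 18 libraries. Sox2, of the same set, was listed at 0 in 6 of the 8-cell and 6 of the morula libraries.

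Genes of the X chromosome were 7 of the 67 lower genes with a GENCODE position, 1 of the 29 higher ones and 3.37% of the genes tested. This count was chosen after the values had been seen and no test was made. The 7 were Acsl4, Chic1, Lamp2, Med14, Brwd3, Map7d2 and Rbm3, and the higher one Gm28268. Chic1 was at 1.36 to 21.5 RPKM with a median of 2.78 and then at 0.0747 to 1.73 RPKM with a median of 0.333, a change of -1.92 ± 0.31 (log2, SE, adjusted p = 0.00507). The Y-linked Ddx3y, which marks male embryos, was at 0, 0 and 0.0331 RPKM in vivo, 0.0132, 0.0344 and 0.00899 in NTC and 26.8, 19.03 and 0 in NTM at the 8-cell stage. In morulas it was at 0.212, 55.6 and 38.8 RPKM in vivo, at 0 in all 3 NTC embryos and at 9.33, 0 and 0 in NTM. Within NTC, whose donors were female and where Ddx3y was below 0.05 RPKM at both stages, Acsl4 changed by -2.32, Chic1 by -1.34, Lamp2 by -0.91, Med14 by -1.59, Brwd3 by -0.9965, Map7d2 by -1.91 and Rbm3 by -0.66. The part of embryo sex in these changes was not tested.

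The 9 values of one stage were wholly separate from the 9 of the other for 5 of the genes tested (0.0521%), and all 5 were called. The 2 higher ones were Ceacam10, a cell adhesion molecule of the immunoglobulin family (0 to 0.691 RPKM with a median of 0.234, then 1.26 to 7.94 RPKM with a median of 3.04), and Hps3, a subunit of the BLOC-2 complex (0 to 0.172 RPKM with a median of 0.0463, then 0.313 to 4.54 RPKM with a median of 1.51). The 3 lower ones were Mob1b, Mfsd14b, a transporter-like membrane protein (84.6 to 180.4 RPKM with a median of 107, then 36.3 to 68.6 RPKM with a median of 60.1), and the predicted model Gm21731. Their changes were +1.68, +1.22, -1.27, -1.02 and -1.24. Other than Mob1b, these genes were named after their values had been seen. Within types, the 3 libraries of one stage were separate from the 3 of the other in at least 1 type for 42.6% of genes, in at least 2 types for 7.95% and in all 3 for 0.531%.

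How far the step was shared between the types was read from the changes within each. Of the called genes, 30 of the 31 higher and all 70 lower ones had the same sign in the 3 types, beside 30.8% of all genes tested, but the blocked estimate is the mean of the 3 and favours such genes. A reading with separate libraries was made by fitting 2 types and taking the sign in the third. In vivo and NTC together called 61 genes (34 higher and 27 lower), of which 40, or 65.6%, had the same sign in NTM, where 52.8% of all genes did. In vivo and NTM called 4 genes, of which 3 had the same sign in NTC, and NTC and NTM called 2, both with the same sign in vivo. With a change of at least 1 at an unadjusted p under 0.05, 518 of 716 genes (72.3%) had the same sign in vivo, 476 of 677 (70.3%) had it in NTC, and 669 of 1069 (62.6%) had it in NTM, where all genes gave 55.4%, 54.3% and 52.8%. No gene passed the test for a difference of the step between the 3 types (limma F test, adjusted p under 0.05, 0% called), and 1018 (10.6%) had an unadjusted p under 0.05. Without NTC 8-cell replicate 2 this count was 31 in place of 0. It was 3 without in vivo 8-cell replicate 3, 2 without in vivo 8-cell replicate 2 or in vivo morula replicate 1, and 1 without NTC 8-cell replicate 1, NTC 8-cell replicate 3 or NTM morula replicate 1.

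The 5 genes with the lowest p in that test were Fbxw24, Pdia5, Cep55, Mtmr9 and Mrpl49 (adjusted p = 0.0939 for Fbxw24 and 0.182 for the others). Pdia5, a protein disulphide isomerase, had a step of +0.81 in vivo, +2.76 for NTC and -2.09 for NTM. Cep55, which acts in the abscission of dividing cells, was at 0.0503, 0.0347 and 0.31 RPKM in the in vivo 8-cell embryos and 15.5, 16.6 and 3.11 in the in vivo morulas, and at 25.5, 14.7 and 16.5 and then 4.95, 6.42 and 3.25 in NTC. Mtmr9, a myotubularin-related protein, changed by +3.38 in vivo and by -0.07 and -0.05 in NTC and NTM, and Mrpl49, of the mitochondrial ribosome, by +0.50, -0.53 and -2.79. The predicted gene Gm21994 was at 0.0706, 0.341 and 0 RPKM and then 36.6, 19.4 and 73.2 in vivo, while NTC went from 0.898, 14.6 and 22.6 to 11.4, 6.44 and 16.6 and NTM from 1.54, 15.6 and 15.3 to 0.477, 15.6 and 8.72. Its blocked change of +1.66 ± 0.74 (log2, SE, adjusted p = 0.275) did not pass. The F test of limma for a difference between types also missed the threshold (adjusted p = 0.207).

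The called genes were followed to the stages on either side, in libraries that had no part in the call. From the 4-cell embryo to the blastula (9 libraries each), 28 of the 31 genes that rose were higher in the blastula, whereas 37.7% of all genes tested were. By at least 1 on the log2 scale, 20 of the 31 were higher, beside 1307 of all 9597 genes. Of the 70 genes that fell, 69 were lower in the blastula, whereas 61.3% of all genes were. By at least 1, 63 of the 70 were lower, beside 2752 of the 9597. The medians were 2.10, -2.91 and -0.34 for higher, lower and all genes. The exceptions were Gm43238, Gm21962 and a gene without a symbol among the higher ones and Adam10, a membrane metalloprotease, among the lower ones.

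Median levels over 9 libraries show where the step lies in the course of each gene. Cdx2 was at 0 RPKM in 1-cell, 2-cell and 4-cell embryos, at 0.229 at the 8-cell stage, 14.5 in morulas and 60.4 in blastulas. Gata3 was also present in 1-cell embryos (10.4 RPKM), was lowest at the 4-cell stage (0.347) and reached 53.3 in blastulas. Trp53bp2 and Cep290 did not continue upward, with 12.5 and 4.91 RPKM in morulas and 10.9 and 1.12 in blastulas. Hand1 and Tbc1d12 were at or near 0 in 1-cell and 2-cell embryos and highest at the 4-cell stage (78.8 and 34.3 RPKM), and Hand1 was at 0.0872 in blastulas. Gata4 was at 7.49 RPKM in 1-cell embryos, 15.4 at the 4-cell stage and 0 in blastulas, a median that covers 0, 5.21 and 34.1 RPKM in the in vivo blastulas, 0 in all 3 NTC blastulas and 0, 0 and 0.136 in the NTM blastulas. Ctsl stayed near its morula level, with 117 RPKM in morulas and 106 in blastulas.

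**Figure D5:**
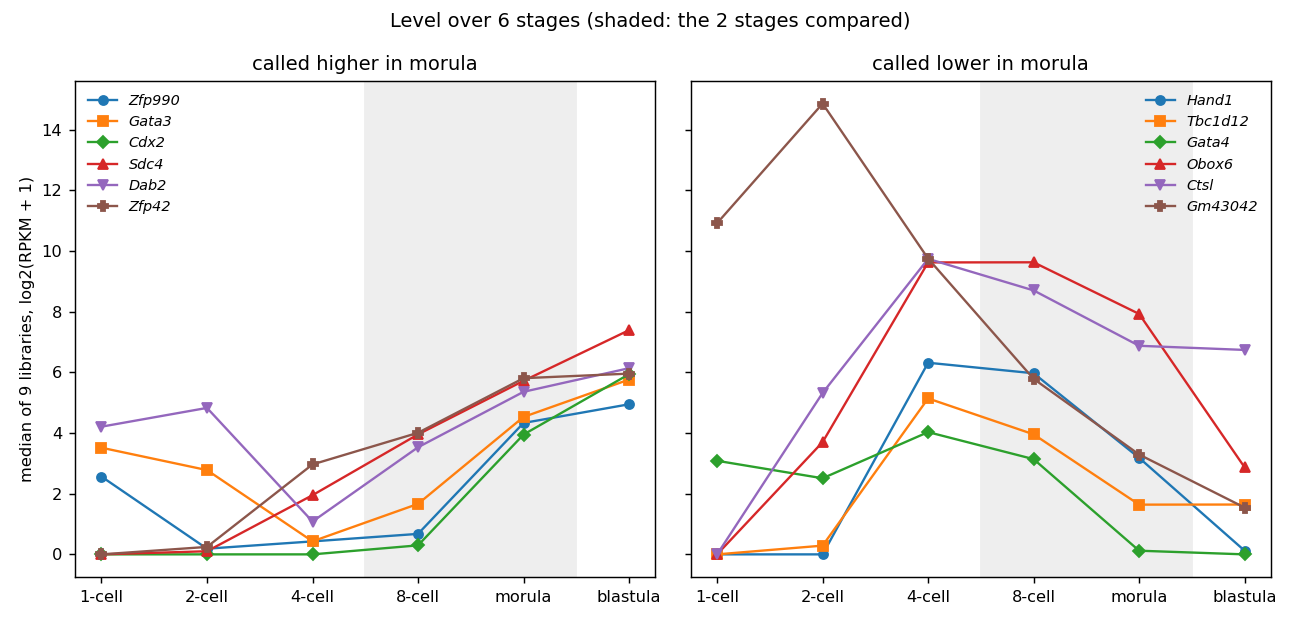
Median of 9 libraries (vertical axis, log2(RPKM + 1)) at 6 stages for 6 genes called higher (left) and 6 called lower (right), with the 8-cell and morula stages shaded. Cdx2 leaves 0 in the shaded interval, while 5 of the 6 genes on the right peak at or near the 4-cell stage and Gm43042 peaks at the 2-cell stage.

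Beyond the change itself, genes that rose were at a median mean level of 8.76 RPKM and genes that fell at 15.7 RPKM, where all genes tested had 3.44 RPKM. A gene near 0 RPKM at both stages cannot reach a change of 1 on this scale. The median exon length was 2528 nt for higher, 4209 nt for lower and 3834 nt for all genes. Protein-coding genes were 24 of 29, 62 of 67 and 90.2% of those with an annotation. Exons that share bases with another gene were found in 8 of the 29 higher genes with GENCODE exons (27.6%) and 20 of the 67 lower ones (29.9%), beside 32.3% of all genes tested.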

How the data were processed

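Single embryos were sequenced after poly(A) tailing and 18 to 20 cycles of amplification without molecular identifiers. The authors deposited RPKM for 27238 genes, made with TopHat and then HTSeq per the study's methods, whereas the submitters' processing notes name Bowtie 0.12.2 and mm8. The build of the reads is therefore unsettled, and gene positions are from GENCODE M21 (GRCm38), matched by identifier for 27013 genes. Reads on genes were computed from the steps between RPKM values. Of the values above 0 that stood for few reads, 74.5 to 79.3% were whole reads at GENCODE exon length (tolerance 0.02).

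Genes whose RPKM averaged 0.5 or more over the 18 libraries (9597) were fitted on log2(RPKM + 1) with limma 3.58.1 in R 4.3.3, with type and stage as terms and a trended eBayes step. A fold change on this scale understates the change of low genes. Calls needed a Benjamini-Hochberg adjusted p under 0.05 and a log2 change of at least 1. All adjusted p-values of genes are from these fits. Tables and figures used Python 3.11.15, pandas 2.3.3 and matplotlib 3.10.9. On simulated data of 9597 genes this comparison recovered 66% of genes changed by 1.5 (log2), 86% at 2 and 100% at 3 and 4, with 5 false calls. The changed genes were drawn only from genes of higher level, and the simulated noise was normal and independent between libraries. The recovery of genes with low levels was therefore not measured.

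Named genes were the 12 highest and 12 lowest called genes of like sign in the 3 types that had an established symbol, 2 predicted models in each direction, up to 4 called members of each of 23 lists (or the 2 most abundant where none was called), the 5 lowest p of the difference between types, 9 lineage genes and Gm21994. The members and lists were chosen with earlier results of these data known. The alternatives were a pseudocount of 0.1, no filter, median-ratio scaling, no mitochondrial genes, no trend, array weights, 1 fit over 54 libraries, replicate blocks, no fold limit and leaving out single libraries or types. Leaving out the 2 shallowest libraries was added after seeing the data. One called list member is not reported here.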

Additional observations from a re-analysis of the deposited data

Results flagged for a closer look

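In the fit of all 18 libraries, Fbxw24 was the single gene whose step differed between NTM and in vivo embryos. The difference was 6.56 on the log2 scale in this contrast (limma adjusted p = 0.0197). Fbxw24 is an F-box gene with many near relatives on chromosome 9. It was at 34.04, 14.8 and 4.75 RPKM in the in vivo 8-cell embryos and at 0.0353, 0 and 0 in the in vivo morulas, and at 0.0787, 0.0354 and 0 in the NTM 8-cell embryos and 3.44, 9.17 and 5.80 in the NTM morulas. All 3 in vivo morulas lay below the in vivo 8-cell embryos and all 3 NTM morulas above the NTM 8-cell embryos. The F test over the 3 types gave an adjusted p of 0.0939. The part of reads shared with the near relatives was not tested.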

How the results depend on the processing

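None of the 36 named calls changed sign under any alternative. They had been chosen in these same libraries for a change of at least 1, which left little room for a turn of sign. The 39 named genes that were not called were held to no such size, and 22 took the other sign in at least 1 alternative. Among them were Cfl1 (-0.38 to 0.32 on the log2 scale), Cdh1 (-0.60 to 0.28), Krt8 (-0.63 to 0.68) and mt-Co1 (-0.37 to 0.40). The excess of lower over higher calls turned to an excess of higher calls with mitochondrial genes left out and without NTM embryos, and was 79 against 78 under median-ratio scaling. The median of all genes was -0.04, and above 0 in these 3 fits (0.05, 0.03 and 0.01) and without in vivo morula replicate 1 (0.01). The numbers of genes called higher and lower (31 and 70) moved by more than 1.5 times, in one or both directions, in the following fits. They were 7 and 29 without the filter, 104 and 118 in one fit over 54 libraries, and 15 and 21 with a replicate block of type and replicate number together. Median-ratio scaling gave 79 higher genes (78 lower) and leaving out mitochondrial genes 93 (71 lower). Without the 2 shallowest libraries 20 were higher (54 lower). Without in vivo embryos the counts were 1 and 1, without NTC 1 and 3, and without NTM 34 and 27, in fits of fewer libraries. Leaving out single libraries gave 13 to 57 higher and 36 to 85 lower genes. The other counts stayed within 1.5 times.

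The test for a difference between types (0 genes) gave 5 with a pseudocount of 0.1, 2 without the filter, 1 with median-ratio scaling, 1 without mitochondrial genes, 10 with array weights and 4 without the 2 shallowest libraries. It gave 1 for the contrast of NTM against in vivo within the same fit, and 0 to 31 without single libraries. Genes called in 2 types with the same sign in the third numbered 8 (in vivo), 11 (NTC) and 69 (NTM) under median-ratio scaling, in place of 2, 3 and 40. The cause was not tested for any of these.

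Same-numbered libraries of the 2 stages deviated together with correlations of -0.05 to 0.05 in 9 pairs, so the numbers do not pair the embryos, and a block of the number beside type gave 26 and 60. Of the 36 named calls, 24 were lost without the filter, 17 with the block of type and number together, 15 without the 2 shallowest libraries, 35 without in vivo or NTC embryos, 17 without NTM embryos, 2 in one fit over 54 libraries (Obox6 and Slc12a2) and none under the other 2 scalings. List members outside the naming rule that are given because another fit called them were picked after their values had been seen. Among fits without single libraries, 16 named calls were lost without NTC morula replicate 3, 15 without NTC morula replicate 1 and 13 without in vivo 8-cell replicate 1. With 3 embryos per group and depths from 5758139 reads, losses of RNA before amplification are not covered by any interval here.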
